A study of Bos taurus with 60 samples.

Results

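The miRNAs of the imprinted DLK1-DIO3 region of bovine chromosome 21 were described here in the intestine of beef steers. Members were the rows of the miRNA count table named bta-miR- plus 1 of 40 listed numbers, with any letter or arm suffix. This gave 51 of the 608 rows. Of the 40 numbers, 38 had a row, and all 51 rows matched a RefSeq gene on chromosome 21. Small RNA was sequenced from 6 regions of 10 steers, giving 60 libraries. The regions were duodenum, proximal and distal jejunum (small intestine) and cecum, spiral and descending colon (large intestine). Of the steers, 5 were non-shedders (NS), negative for Escherichia coli O157 in feces. The other 5 were super-shedders (SS), which passed more than 4 log10 colony-forming units of this bacterium per gram of feces when first sampled, days before slaughter. According to the study, most SS steers were still positive at slaughter but no longer at the super-shedder level. The steers of both groups were British × Continental feedlot steers. The pieces of gut tissue were taken at slaughter, so that each library mixed all cell types of the piece. The labels give no age. Each steer gave every region, so the libraries of 1 steer were not independent animals, and tests over the 60 libraries compared these 10 steers.

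In mammals this region is imprinted, which means that the copy from only 1 parent is active for a given transcript. In mouse and human the protein genes DLK1, RTL1 and DIO3 are read from the paternal copy. The noncoding RNAs MEG3, MEG8 and MEG9 and the miRNAs between them are read from the maternal copy. The miRNAs are known for high levels in embryo, placenta and brain. In RefSeq order, miR-493 and miR-665 followed MEG3, after which miR-431, miR-433, miR-127, miR-432 and miR-136 lay at RTL1, then miR-370. These 8 rows are called the upstream group here, and the 43 rows from miR-379 to miR-656 form the second group. In mouse, miR-127 and miR-136 lie opposite Rtl1, whose transcript they can pair with perfectly.

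The total counts per library ranged from 535373 to 19346766, with a median of 1735054. Levels are given as CPM, the usual scaling of counts by the library total, and a floor of 3 counts stood for 5.60 CPM in the shallowest library and 0.155 CPM in the deepest. The 2 deepest libraries, descending colon of NS108 and of SS310, stood apart, since the other libraries had at most 6569141 counts. A further 3 libraries, all of steer SS299 (proximal jejunum, distal jejunum and descending colon), held almost no epithelial miRNAs. The 8 epithelial markers (miR-192, miR-194, miR-215 and the miR-200 family) took 0.151% to 0.280% of counts there, against 1.62% to 34.5% in the other 57. In these tissue pieces, fewer cells of a type and less RNA per cell cannot be told apart. Results were therefore also computed without the 2 deepest libraries and without these 3, which was decided after seeing the data.

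The cluster was carried by 2 of its members. bta-miR-127, an upstream miRNA, had a mean of 3493 ± 1667 CPM (SD, n = 60) and ranked 31 among all 608 rows. bta-miR-411a, the neighbour of miR-379, had 1015 ± 491 CPM and ranked 53. Together these 2 rows made up 88.4% to 94.9% of the cluster's counts in a library (median 92.2%). Mature miRNAs are of nearly equal length, so CPM were compared between miRNAs without a length correction. Such comparisons between miRNAs or arms are of reads, as how well each sequence enters a library was not measured. The third member, bta-miR-381, reached 53.1 ± 24.6 CPM and ranked 149. It was followed by bta-miR-410 (46.3 ± 17.8 CPM), bta-miR-379 (44.4 ± 31.1 CPM), bta-miR-380-3p (33.5 ± 17.2 CPM) and bta-miR-409a (26.8 ± 28.9 CPM). Next came bta-miR-154c (25.5 ± 15.5 CPM), bta-miR-136 (24.1 ± 15.2 CPM) and bta-miR-432 (22.3 ± 12.8 CPM). From miR-381 to miR-432 the neighbours in this order did not differ beyond their spread over libraries.

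**Figure D1:**
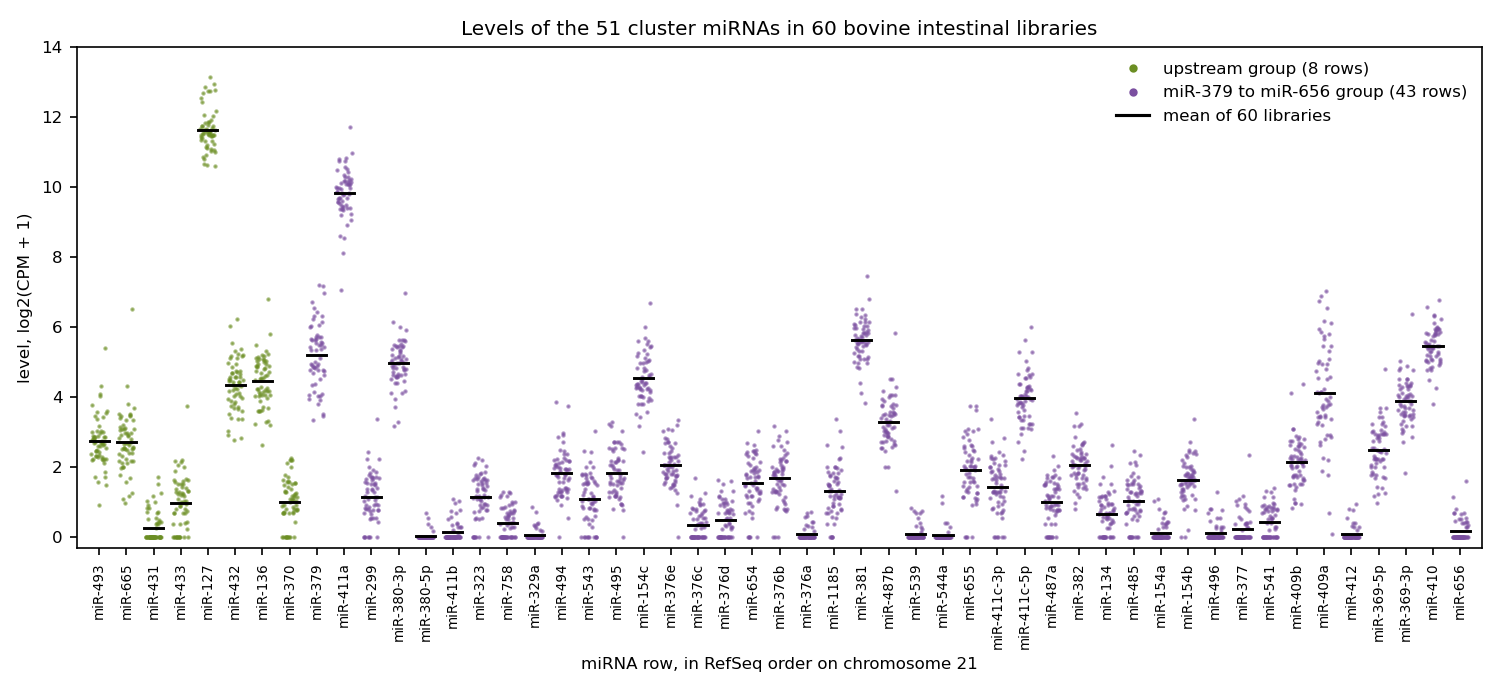
Level of each of the 51 cluster miRNAs (x axis, in RefSeq order) as log2(CPM + 1) (y axis), with 1 point per library (n = 60) and a bar at the mean of the log2 values. bta-miR-127 and bta-miR-411a stand above all other members, which lie at a mean of 53.1 CPM or lower.

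Counting the 49 other members by mean level, 11 lay above 10 CPM, 21 between 1 and 10 CPM and 17 below 1 CPM. No member lacked counts in all libraries, and 18 were counted in every library. The 16 members that failed the filter (CPM above 1 in at least 3 libraries of 1 group) had means from 0.0297 to 0.507 CPM. These means lay under the floor of the shallowest library, and the 16 were not tested. The other 35 were tested, 7 of the 8 upstream rows and 28 of the 43 rows from miR-379 to miR-656. Members with nearly alike letters (miR-154, miR-376, miR-411, miR-487) may have shared reads, so that the split between such letters is uncertain.

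Neighbours along the cluster differed widely in level. bta-miR-127 and bta-miR-431, 2 of the rows at RTL1, had 3493 and 0.28 CPM. bta-miR-411a at 1015 CPM lay next to bta-miR-379 at 44.4 CPM and to bta-miR-299 at 1.52 CPM. The ratio of miR-127 to miR-411a also varied, from 1.65 in the spiral colon of NS242 to 32.0 in the proximal jejunum of SS287 (median 3.27). Its median by region lay between 2.86 in the spiral colon and 3.79 in the distal jejunum.

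Where a hairpin gave 2 counted arms, the same arm led in every library. bta-miR-380-3p had 5963 counts over the 60 libraries, against 6 of bta-miR-380-5p. bta-miR-369-3p had 2703 counts against 1010 of bta-miR-369-5p and was the higher arm in 60 of 60 libraries. bta-miR-411c-5p had 3085 counts against 397 of bta-miR-411c-3p, again higher in 60 of 60. By read counts the leading arm was thus the 3p arm of miR-369 and miR-380 and the 5p arm of miR-411c.

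Taken as a sum, the cluster made up 0.489% ± 0.216 of all counts (SD, n = 60), or 4891 ± 2156 CPM. In the small intestine the sum was 5433 ± 2001 CPM for duodenum, 4263 ± 1880 for proximal and 3609 ± 738 for distal jejunum (SD, n = 10 each). In the large intestine it was 6315 ± 2508 CPM for cecum, 4235 ± 596 for spiral and 5493 ± 3166 for descending colon. The cecum had the highest mean and the distal jejunum the lowest, with ranges of 4103 to 11513 and 2507 to 4788 CPM that overlapped. No neighbouring regions in this order differed beyond their spread. The highest library was the descending colon of NS242 at 12522 CPM and the lowest the descending colon of SS274 at 2313 CPM. bta-miR-143 took 11.7% of counts in the former and 69.2% in the latter, and a smaller share of it raises the CPM of other rows.

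Most tested members were higher in the large than in the small intestine. In edgeR's quasi-likelihood test over all filtered miRNAs at an FDR of 10%, 19 of 35 members rose from the small intestine (duodenum and jejunum) to the large intestine (cecum and colon), and 0 fell. Over all miRNAs, 31.2% passed this test, 14.7% as higher and 16.5% as lower. The log2 fold change was above 0 for 33 of 35 members, with a median of 0.58, against -0.01 over all miRNAs tested. Of the members that passed, 4 of 7 were upstream rows (median of the 7, 0.54) and 15 of 28 came from miR-379 to miR-656 (median of the 28, 0.60). Calls thus came from both ends of the cluster. At an unadjusted p under 0.05 there were 23 of 35 members, beside 36.5% of all miRNAs.

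The change was small for each miRNA. bta-miR-410 had the smallest adjusted p. Its level ran from 12.9 to 94.8 CPM in the small intestine (median 39.8, n = 30) and from 18.2 to 109.7 CPM in the large intestine (median 54.8, n = 30). The groups overlapped widely, and the log2 fold change was 0.71 ± 0.13 (SE), with an adjusted p of 8.8e-05 in edgeR's quasi-likelihood test. Within steers, miR-410 was higher in the large intestine in 9 of 10.

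bta-miR-1185 had the largest log2 fold change, 1.28 ± 0.26 (adjusted p = 0.00023, edgeR), at a low level. It ranged from 0 to 5.25 CPM in the small intestine (median 1.11) and from 0.465 to 9.49 CPM in the large intestine (median 1.93), again with overlap. It had no count in 5 of 30 libraries of the small intestine. bta-miR-154c rose by 0.90 ± 0.17 (adjusted p = 0.000114), bta-miR-380-3p by 0.71 ± 0.15 (adjusted p = 0.000331) and bta-miR-411c-5p by 0.80 ± 0.17 (adjusted p = 0.000609) in the same edgeR test. bta-miR-380-3p, bta-miR-411c-5p and bta-miR-369-3p were higher in the large intestine in 10 of 10 steers. Both arms of miR-369 rose together, bta-miR-369-3p by 0.61 ± 0.15 and bta-miR-369-5p by 0.91 ± 0.21. For miR-411c the arms differed in call, as bta-miR-411c-3p had a log2 fold change of -0.11 ± 0.29 and did not pass. The difference between these arms was not tested.

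Of the 2 abundant members, bta-miR-411a rose by 0.67 ± 0.18 (adjusted p = 0.00466, edgeR), while bta-miR-127 had a log2 fold change of 0.33 ± 0.18 that did not pass (adjusted p = 0.174). bta-miR-409a (-0.01 ± 0.44), bta-miR-379 (0.17 ± 0.23), bta-miR-432 (0.36 ± 0.18), bta-miR-376e (0.03 ± 0.17) and bta-miR-495 (0.01 ± 0.22) did not pass either. Among the neurally known members, bta-miR-134, which limits dendritic spine size in rat neurons, was at 0.78 ± 0.36 and did not pass (adjusted p = 0.106). bta-miR-485 was at 0.42 ± 0.32 (adjusted p = 0.374).

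**Figure D2:**
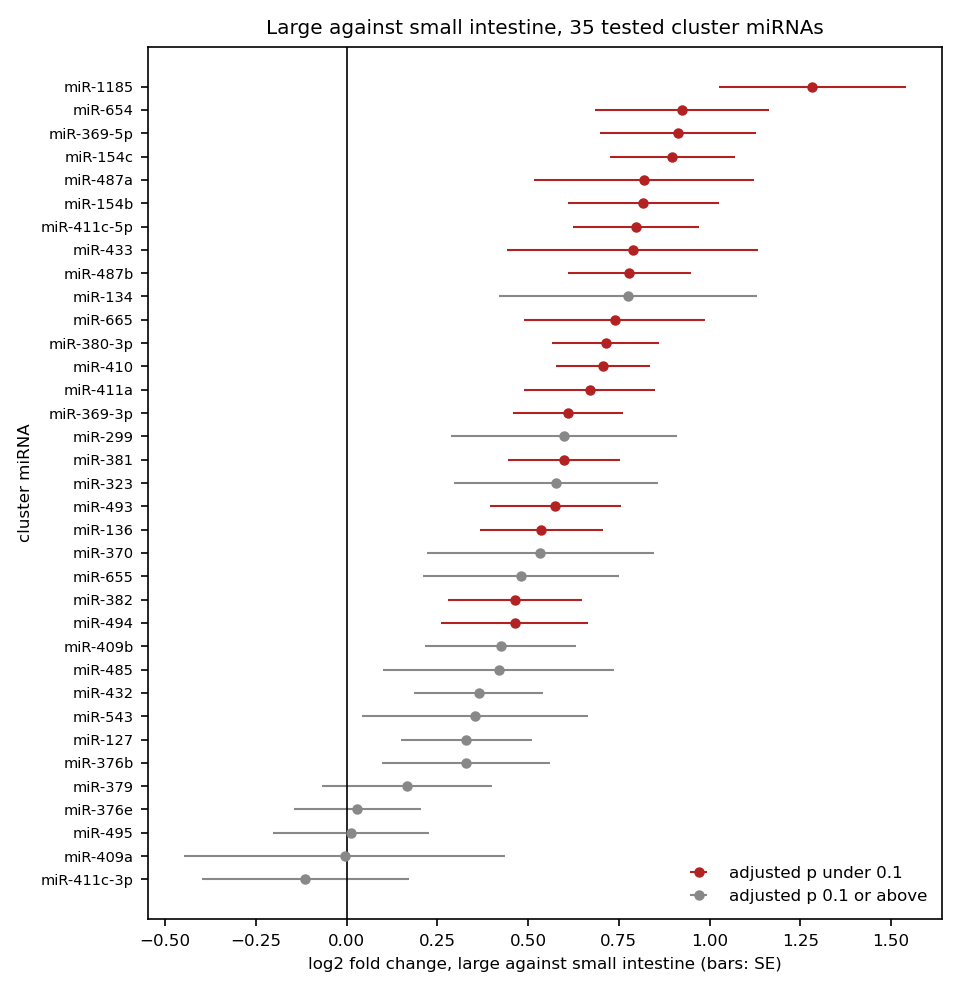
Log2 fold change of the large against the small intestine (x axis) for the 35 tested cluster miRNAs (y axis), with bars for the SE and red for an adjusted p under 0.1 in edgeR's quasi-likelihood test. Of the 35 values 33 lie above 0, from bta-miR-1185 at 1.28 down to bta-miR-411c-3p at -0.11.

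The direction was not equal in all steers. Counting members with a higher mean log2(CPM + 1) in the large intestine, NS242 had 33 of 35 and NS108 had 30 of 35. NS165 had 13, SS287 had 18 and SS299 had 20. These counts were not matched for depth. Library totals ran from 535373 to 6569141 in the small and from 875432 to 19346766 in the large intestine. Members near 1 CPM rest on few counts in the shallow libraries. For the edgeR test, thinning all libraries to 535373 counts was among the alternatives that gave 13 to 28 members. Without the 3 SS299 libraries poor in epithelial miRNAs, 28 of 35 members passed instead of 19, all of them higher, and without steer SS299 altogether 29 passed. bta-miR-127 and bta-miR-432 were among the members that passed then, and bta-miR-409a and bta-miR-379 were not. Without the 2 deepest libraries, the adjusted p of bta-miR-136 in edgeR's quasi-likelihood test rose from 0.0167 to 0.0521. With library size alone in place of TMM scaling, 13 of 35 members passed, all higher, and the median of all miRNAs moved to -0.23. In that fit the calls over all miRNAs were split into 25 higher and 92 lower, against 56 and 63 in the TMM fit.

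Markers of other cell types moved along the same axis. Of 5 mesenchymal markers (miR-199 and miR-214), 3 rose in the large intestine (median log2 fold change 0.28), and their sum ran from 1263 to 9055 CPM in the small and from 2175 to 20184 CPM in the large intestine. Of these 3, bta-miR-199a-3p and bta-miR-199c had nearly equal means (2099 and 2142 CPM) and may have shared reads, so the count and the sum may hold the same reads repeatedly. Of 5 tested muscle markers, 1 rose (median 0.44), the list's sum running from 84146 to 604899 CPM in the small and from 117475 to 707621 CPM in the large intestine. Of 5 leukocyte markers, 3 fell (median -0.54), with sums of 178 to 27915 and 856 to 15244 CPM. Of 8 epithelial markers, 1 rose and 1 fell (median -0.04), with sums of 1512 to 344858 and 2803 to 284722 CPM. The neuronal list had 0 risen and 1 fallen of 7 (sums of 97.0 to 1643 and 120 to 478 CPM), the endothelial list 0 of 2 in either direction (2070 to 22344 and 2922 to 26542 CPM) and the erythrocyte list 1 risen of 3 (193 to 1838 and 131 to 14942 CPM). No marker in the table was at 0 in all libraries, and their part in the rise of the cluster was not tested.

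An F test over the 6 regions in edgeR's quasi-likelihood fit called 17 of 35 members at an FDR of 10%, beside 30.4% of all miRNAs (20 of 35 against 36.5% at an unadjusted p under 0.05). bta-miR-1185 (adjusted p = 0.000465), bta-miR-410 (0.000844) and bta-miR-369-3p (0.00152) had the smallest values. Of the 35 members, 17 had their highest mean in the cecum and 15 in the descending colon, 2 in the duodenum and 1 in the distal jejunum. The lowest mean lay in the distal jejunum for 20 and in the proximal jejunum for 7. Thus the spiral colon, which lies between the cecum and the descending colon, was the highest region for 0 members. For bta-miR-410 the mean was 46.6 ± 19.5 CPM for duodenum, 36.7 ± 7.83 for proximal and 34.7 ± 10.4 for distal jejunum (SD, n = 10 each). It was 59.3 ± 12.6 CPM for cecum, 47.0 ± 14.95 for spiral and 53.2 ± 25.5 for descending colon, and neighbours in this order did not differ beyond their spread. The count fell to 4 of 35 with library size alone, to 10 after thinning all libraries to 535373 counts and to 10 without SS274 or without SS310, and it was 25 without the 3 SS299 libraries. Without the 2 deepest libraries, bta-miR-136 (adjusted p = 0.171), bta-miR-154b (0.118) and bta-miR-432 (0.116) no longer passed this F test.

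The members did not all vary together between libraries. Levels were set as log2(CPM + 1) minus the mean of their region and phenotype, and compared over the 60 libraries, which share steers and differ in depth and tissue make-up, so the r values are a description. Over the 595 pairs of tested members the median Pearson r was 0.30 and 92.8% of pairs were above 0, against a median of 0.24 and 78.4% over all pairs of tested miRNAs. Among the 15 most abundant members the median was 0.55. The sets below were chosen after these values were seen. Within the cluster, bta-miR-381, bta-miR-410, bta-miR-380-3p, bta-miR-154c, bta-miR-136, bta-miR-487b and bta-miR-369-3p varied together. The r was 0.84 for miR-381 with miR-380-3p, 0.82 for miR-381 with miR-410, 0.80 for miR-410 with miR-154c and 0.75 for miR-136 with miR-154c. bta-miR-411a joined this set in part, with an r of 0.69 with miR-381 but 0.31 with miR-136. Its r was 0.50 with miR-127 and 0.53 with miR-432.

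A second, looser set held bta-miR-127, bta-miR-432, bta-miR-379 and bta-miR-409a. bta-miR-432 was not apart from the first set, where its r ran from 0.23 with miR-136 to 0.55 with miR-410. Within the second set it ran from 0.39 with miR-409a to 0.70 with miR-127. The r of miR-127 was 0.70 with miR-432, 0.65 with miR-379 and 0.61 with miR-409a, but 0.29 with miR-410, 0.12 with miR-136 and 0.10 with miR-154c. bta-miR-409a had an r of -0.34 with miR-136, -0.22 with miR-154c and -0.05 with miR-410, and 17 of its 34 values with other members were below 0. Without the 2 deepest libraries (n = 58), miR-409a had an r of 0.80 with miR-127 and -0.23 with miR-136. Without the 3 SS299 libraries (n = 57) these were 0.54 and -0.25. The r of bta-miR-127 was then higher, at 0.46 with miR-410, 0.28 with miR-136 and 0.20 with miR-154c, so the distance between the sets was smaller. The r of bta-miR-409a with miR-410 changed sign, to 0.08 without the 2 deepest and 0.07 without the 3 SS299 libraries, and its median r with other members turned from -0.01 to 0.08 without the 2 deepest. Both sets held rows of the upstream group and of the second group, and miR-432 and miR-136, neighbours in the upstream group, had an r of 0.23.

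**Figure D3:**
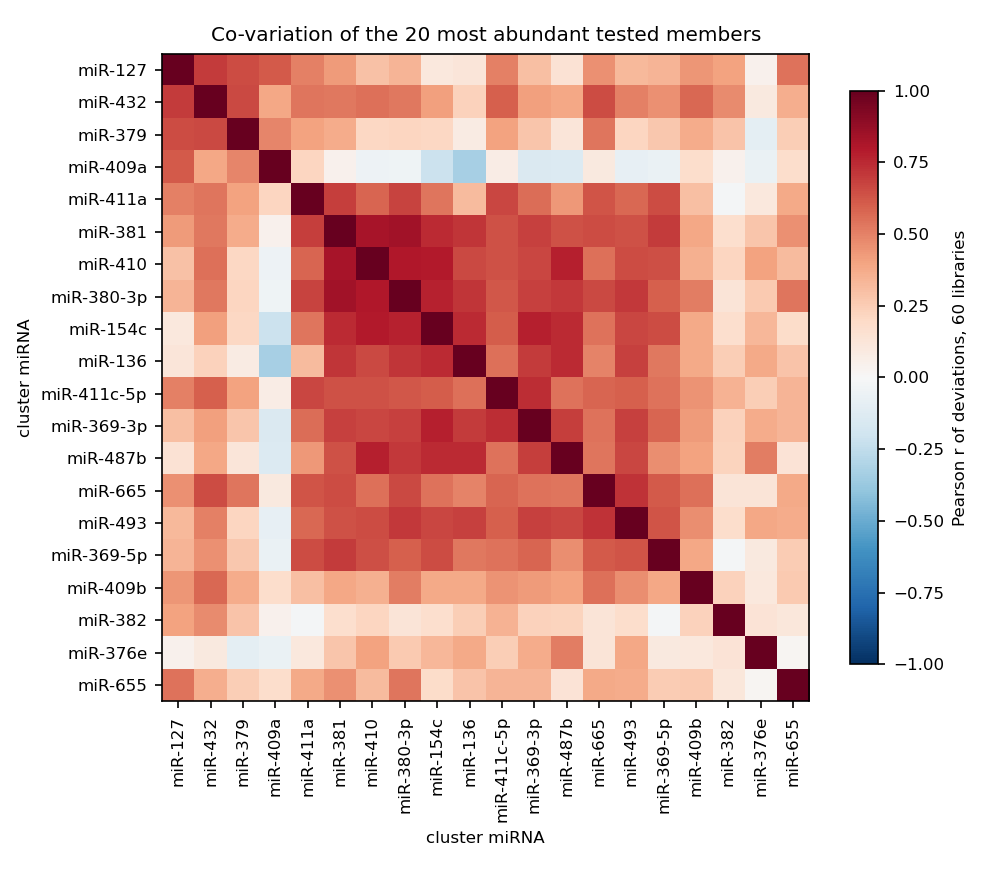
Pearson r between cluster miRNAs over 60 libraries, on log2(CPM + 1) as deviation from the mean of region and phenotype, for the 20 most abundant tested members (both axes). The rows from miR-381 to miR-487b are red with each other, while miR-411a is paler with miR-136 (0.31) and miR-487b (0.43). miR-127, miR-432 and miR-379 are red with each other, and miR-409a is pale or blue with most members, for example -0.34 with miR-136.

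bta-miR-409a and bta-miR-409b are given the same interval of chromosome 21 in RefSeq, yet their levels varied apart (r = 0.18, n = 60). In sum bta-miR-409a had 4058 counts and bta-miR-409b 617, and miR-409a was the higher in 56 of 60 libraries. Its share was not constant. In the 2 deepest libraries bta-miR-409a was nearly missing. The descending colon of NS108 had 12 counts, or 0.62 CPM (exact 95% interval 0.32 to 1.08), and that of SS310 had 1 count, or 0.072 CPM (0.0018 to 0.40). The other 8 descending colon libraries ran from 6.31 to 68.8 CPM (median 14.1), and the lowest of all other 58 libraries was at 2.43 CPM. The intervals cover counting error only, since reads amplified by PCR without molecular tags are not independent molecules.

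In the same 2 libraries bta-miR-409b had 65 and 51 counts, or 3.36 and 3.66 CPM, beside a median of 3.35 in the other 8. Other members were not lost there either, as bta-miR-410 had 61.3 and 75.0 CPM (median of the others 38.0) and bta-miR-136 had 36.3 and 54.4 CPM (median 16.4). In their other 5 regions the same steers had high levels of bta-miR-409a, 26.0 to 72.0 CPM in NS108 and 33.3 to 106 CPM in SS310. Of 231 miRNAs with a median of at least 5 CPM in the other 8 descending colon libraries, miR-409a was the only row below a 10th of that median in both deep libraries, and 0 were above 10 times it.

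**Figure D4:**
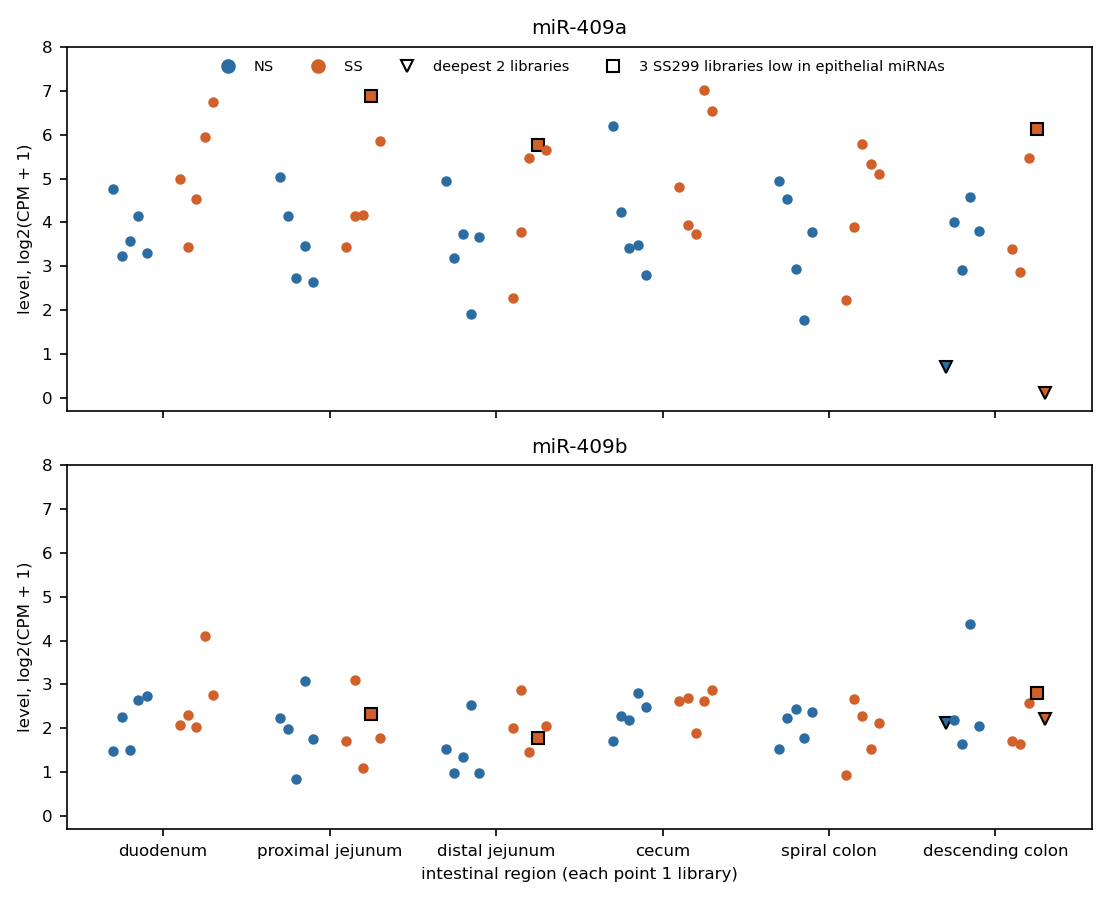
Levels of bta-miR-409a (top) and bta-miR-409b (bottom) as log2(CPM + 1) (y axis) in each library, by region (x axis) and phenotype (blue NS, orange SS). Triangles mark the 2 deepest libraries, where miR-409a lay at 0.62 and 0.072 CPM and miR-409b at 3.36 and 3.66 CPM, and squares mark the 3 SS299 libraries low in epithelial miRNAs.

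Steers of 1 phenotype differed in some members. With region and phenotype in the fit, edgeR's quasi-likelihood F test called 14 of 35 members at an FDR of 10%, close to the 37% of all miRNAs (16 of 35 against 39.9% at an unadjusted p under 0.05). bta-miR-127 had the smallest adjusted p (0.000102), followed by bta-miR-409a (0.00238) and bta-miR-432 (0.00594). bta-miR-379 passed as well (0.0382). Of the upstream rows 6 of 7 passed, and of the rows from miR-379 to miR-656 8 of 28.

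Mean levels of bta-miR-127 over the 6 regions of a steer ran from 2478 ± 480 CPM in NS165 to 4114 ± 2335 CPM in NS242 among NS, and from 2331 ± 799 CPM in SS274 to 5883 ± 2372 CPM in SS299 among SS (SD, n = 6 each). For bta-miR-409a they were 31.6 ± 22.9 CPM in NS108, 14.7 ± 5.5 in NS152, 8.6 ± 2.7 in NS165, 10.8 ± 7.9 in NS242 and 9.6 ± 3.4 in NS745. In SS they were 14.1 ± 11.7 CPM in SS274, 12.3 ± 3.7 in SS287, 32.1 ± 17.2 in SS294, 77.9 ± 36.5 in SS299 and 56.3 ± 38.7 in SS310. By mean, SS299, SS310, SS294 and NS108 thus lay above the other 6, but their libraries overlapped. NS108 ran from 0.62 to 72.0 CPM, while SS274 reached 30.6 CPM in the duodenum. Without the 3 SS299 libraries the test called 4 of 35 members (miR-127, miR-136, miR-409a and miR-411a), and after thinning to the smallest library 4. It called 6 without SS287, 7 without NS165, 7 without SS299 and 8 without SS294. In the 3 other libraries of SS299 the epithelial markers took 20.8% (duodenum), 9.23% (cecum) and 18.2% (spiral colon) of counts, within the range of other steers, and bta-miR-409a was at 60.5, 129 and 39.1 CPM there.

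Super-shedders and non-shedders were compared region by region, as the study asked which miRNAs differ between them. No cluster miRNA passed an FDR of 10% in edgeR's quasi-likelihood test in any of the 6 regions, nor on the summed counts of each steer. The number tested was 33 in the duodenum and proximal jejunum, 30 in the distal jejunum and 34 in cecum, both colon segments and the sums. Over all miRNAs, 0.293%, 0.282%, 0.592%, 0.292%, 0.898%, 0% and 0.583% passed in this order of comparisons. At an unadjusted p under 0.05 there were 1, 4, 3, 3, 1, 0 and 4 members, where 4.4%, 11%, 10.1%, 7.89%, 8.68%, 3.02% and 10.2% of all miRNAs met this mark. The exact test of edgeR and limma-voom called 0 members in every region, and DESeq2 called 0 in 5 regions and 2, bta-miR-379 and bta-miR-409a, in the distal jejunum.

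The median log2 fold change of members was 0.05 for duodenum, 0.25 for proximal and 0.23 for distal jejunum (all miRNAs 0.00, 0.11 and 0.06). For cecum, spiral and descending colon it was -0.38, -0.20 and -0.38 (all miRNAs -0.01, -0.03 and 0.04). The value was below 0 for 30 of 34 members in the cecum and 28 of 34 in the descending colon, and above 0 for 25 of 33 in the proximal jejunum. Over all miRNAs, 49.1%, 52.6% and 60.3% were above 0 in this order. The sums of each steer added raw counts, so its deepest libraries weighed most. Among these were the descending colon of NS108 (19346766 counts) and of SS310 (13942283 counts). On these summed counts, the median of members was -0.26 (all miRNAs 0.003), with 28 of 34 below 0. There 50.4% of all miRNAs were above 0. As the members vary together between libraries, these counts are not independent. A test of whether the SS against NS difference varied between regions called 0 of 35 members in edgeR's quasi-likelihood test, with 0 members at an unadjusted p under 0.05 (0% of all miRNAs called, 2.89% at that p), and 0 in limma-voom.

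bta-miR-379, bta-miR-409a and bta-miR-432 were the 3 members with a log2 fold change above 0 in all 6 regions, and 0 of them passed. In the distal jejunum bta-miR-409a had 29.9, 8.18, 12.2, 2.74 and 11.6 CPM in NS and 3.85, 12.7, 43.5, 53.0 and 49.4 CPM in SS. Of the SS libraries 3 lay above all NS libraries and 2 within their range. The log2 fold change was 2.48 ± 0.85 (SE), with an adjusted p of 0.306 in edgeR's quasi-likelihood test, 0.124 in edgeR's exact test and 0.0897 in DESeq2, and over the alternatives it ran from 0.0897 to 0.648. Without SS299, whose distal jejunum library was poor in epithelial miRNAs, the value was 1.54 (adjusted p = 0.473).

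Elsewhere the log2 fold change of bta-miR-409a was 1.59 ± 0.60 for duodenum, 2.48 ± 0.94 for proximal jejunum, 1.24 ± 0.71 for cecum, 0.61 ± 0.64 for spiral and 1.18 ± 1.15 for descending colon. In the proximal jejunum the levels were 31.8, 16.6, 5.60, 9.98 and 5.28 CPM in NS and 9.91, 16.7, 16.8, 117 and 57.3 CPM in SS. The 2 highest of these were SS299 and SS310. On summed counts it was 1.84 ± 0.61 (adjusted p = 0.231, edgeR's quasi-likelihood test). The same test gave 1.68 without the 2 deepest libraries (adjusted p = 0.310) and 1.34 without the 3 SS299 libraries (adjusted p = 0.227). It gave 0.91 without SS299 (adjusted p = 0.424).

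bta-miR-379, the first miRNA of the second group, had 16.8, 27.4, 48.9, 19.9 and 31.0 CPM in the distal jejunum of NS and 39.8, 52.1, 50.1, 45.5 and 85.0 CPM in SS. The groups overlapped through 1 NS library, NS165 at 48.9 CPM. The log2 fold change was 1.45 ± 0.46, with an adjusted p of 0.304 in edgeR's quasi-likelihood test, 0.124 in its exact test and 0.0863 in DESeq2 (0.0863 to 0.622 over the alternatives). It was 0.72 ± 0.50 for duodenum, 1.71 ± 0.62 for proximal jejunum, 1.003 ± 0.44 for cecum, 0.88 ± 0.41 for spiral and 0.62 ± 0.66 for descending colon. On summed counts it was 1.05 ± 0.32 (adjusted p = 0.208, edgeR's quasi-likelihood test). The same test gave 1.15 without the 2 deepest libraries (adjusted p = 0.161) and 0.62 without SS299 (adjusted p = 0.170). On the full sums edgeR's exact test (adjusted p = 0.0852) and DESeq2 (0.0480) called both miR-379 and miR-409a.

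**Figure D5:**
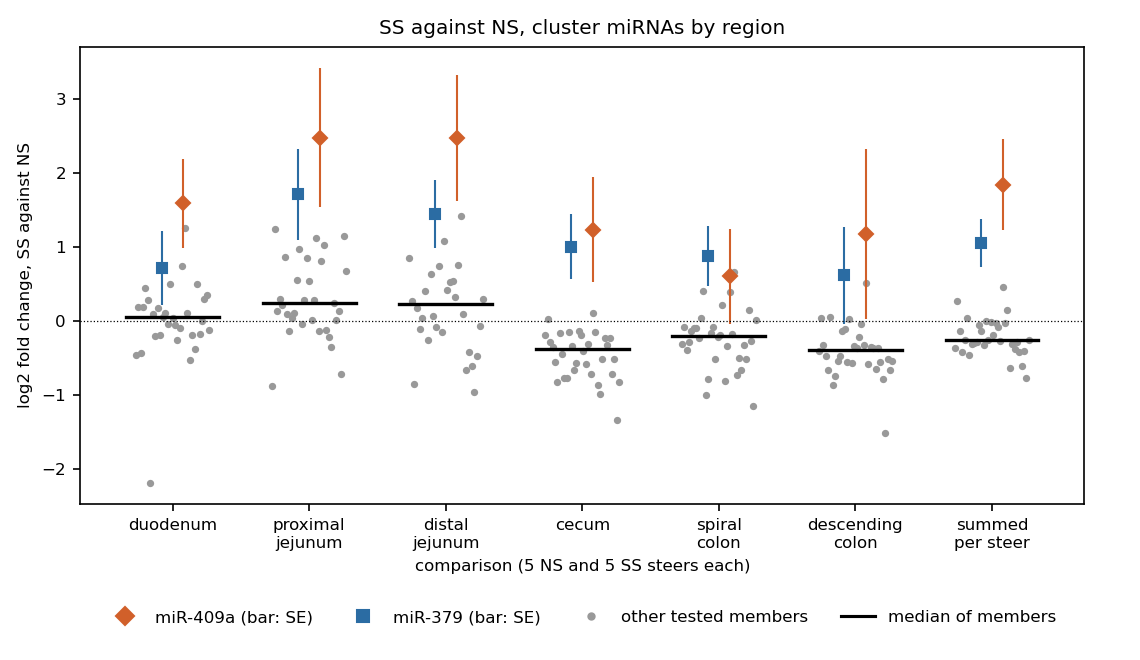
Log2 fold change of SS against NS (y axis) for the tested cluster miRNAs in each region and on counts summed per steer (x axis), with a bar at the median and SE bars for bta-miR-409a and bta-miR-379. These 2 lie above 0 throughout, for example at 2.48 and 1.45 in the distal jejunum, while the median of members is at -0.38 in cecum and descending colon.

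Muscle markers were measured beside these values. All 5 tested muscle markers had positive log2 fold changes in the proximal jejunum (median 1.05, 0 passed) and in the distal jejunum (median 1.10, 0 passed). The list's sum ran from 264761 to 494774 CPM in NS and from 168408 to 581347 CPM in SS in the distal jejunum, and from 316095 to 503079 CPM and from 423538 to 595667 CPM in the proximal jejunum. For that region 0 of 8 epithelial markers (median -0.92) and 0 of 5 leukocyte markers (median -0.45) had a log2 fold change above 0, and 0 passed. The epithelial sum there ran from 135914 to 294563 CPM in NS and from 1512 to 210072 CPM in SS. In the distal jejunum 2 of 8 epithelial markers were above 0 (median -0.07). The 8 summed to 136695 to 207412 CPM in NS and 2477 to 321536 CPM in SS, and SS299 was the lowest in both regions. Their part in the values of miR-409a and miR-379 was not tested.

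Among the miRNAs outside the cluster, 5 were most like its summed level in the 60 libraries, by Pearson r of the same deviations. These were bta-miR-125b (r = 0.70, mean 2946 ± 2881 CPM), bta-miR-1343-3p (0.67), bta-miR-199a-5p (0.66, 405 ± 178 CPM), bta-miR-99a-5p (0.65) and bta-miR-204 (0.64). bta-miR-199a-5p is a mesenchymal marker of the list above. As miR-127 made up a median of 70.1% of the cluster's counts, the summed level mainly carried miR-127. The deviations of the summed mesenchymal, endothelial and erythrocyte lists had an r of 0.40, 0.50 and 0.55 with the cluster, those of muscle -0.43, of leukocytes -0.18, of epithelium -0.17 and of neurons -0.03. bta-miR-143, at a mean of 450128 CPM, made up most of the muscle sum. As all CPM of a library share 1 total, more of it lowers the CPM of other rows. Its part in the -0.43 was not tested. These values are a description over libraries that share steers and depth.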

How the data were processed

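The deposited table held raw read counts per mature miRNA. According to the study's methods, the authors trimmed and filtered the reads and counted them with sRNAtoolbox at default settings, and the submitters' processing notes name Bowtie and edgeR. Neither the genome build nor the miRBase release used for counting is given in the sources used here. All columns were used. The table had 5 rows without counts, and none of the 120 pairs of libraries of the same region and phenotype was a duplicate. Pairs across groups were not compared. Counts of each comparison were fitted over all miRNAs with CPM above 1 in at least 3 libraries of a group, by the quasi-likelihood test of edgeR 4.0.16 (R 4.3.3) with TMM scaling and Benjamini-Hochberg adjustment, at an FDR of 10% as in the study. The study's exact test, DESeq2 1.42.0, limma-voom (limma 3.58.1), RLE or library size scaling, other filters, an FDR of 5%, thinning, leaving out each steer and a steer block were alternatives. The edgeR fits were also run on simulated counts, drawn independently for each library apart from the planted changes. That run could not show how pairing by steer affects the fits. Levels are CPM of all counts, and log2 levels have a pseudocount of 1. The SE of a log2 fold change was derived from the quasi-likelihood test, as its absolute value divided by the square root of the F statistic. It is thus no separate estimate of error.

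Regions are paired by steer, because the titles give the same animal. Libraries of the same steer deviated together from their group means over all tested miRNAs (mean r 0.14 over 150 pairs, 116 above 0, against -0.01 over 1350 pairs of other steers). The main fits over regions have no block.

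The named miRNAs were the 10 members of highest mean CPM, members past the FDR (at most 10 per test), miR-409a, and the 5 most similar miRNAs outside the cluster. miR-376e, miR-495, miR-134, miR-431, miR-299, miR-380-5p and miR-411c-3p were added after their values were seen. The members, lists and tests were chosen with earlier results of these data known. RefSeq (ARS-UCD2.0) was used for names and neighbour order only.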

Additional observations from a re-analysis of the deposited data

Results flagged for a closer look

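Dixon's test at 95% was applied to the summed cluster and its 10 most abundant members in each of the 12 groups of 5 libraries. It marked 8 of 132 groups, where chance marks about 1 in 20 (6.6 groups).

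In the duodenum of NS, the library of NS242 stood above the other 4. Its summed cluster was at 7863 CPM (others 3761 to 4583), bta-miR-127 at 5974 CPM (others 2615 to 3239) and bta-miR-411a at 1431 CPM (others 930 to 1030). In this library bta-miR-143 took 18.1% of counts (others 47.0% to 60.2%), and a smaller share of it raises the CPM of other rows. In the distal jejunum of NS, bta-miR-411a was low in NS745, at 277 CPM (others 669 to 909). In the proximal jejunum of NS, steer NS165 was low for bta-miR-410 at 31.2 CPM (others 40.5 to 44.9) and for bta-miR-380-3p at 8.001 CPM (others 27.3 to 43.6). In the distal jejunum of SS, bta-miR-410 was low in SS299, at 12.9 CPM (others 32.5 to 43.1), a library that also had few epithelial miRNAs. In the duodenum of SS, bta-miR-380-3p was high in SS299, at 69.5 CPM (others 23.8 to 32.4). There bta-miR-143 took 8.38% of counts (others 17.3% to 58.7%). The part of miR-143 in these flags was not tested.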

How the results depend on the processing

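In SS against NS, the number of members past the FDR was 0 under all alternatives in 5 regions, and leaving out any steer gave 0 to 0. The exceptions were 2 members by DESeq2 in the distal jejunum, and 2 on summed counts by edgeR's exact test and 2 by DESeq2. For large against small intestine (19 members), leaving out each steer gave 14 to 29 and the other alternatives 13 to 28. For the 6 regions (17 members), library size alone gave 4 and thinning 10, and leaving out a steer gave 10 to 25. For steers of 1 phenotype (14 members), an FDR of 5% gave 9, no filter 9, thinning 4 and leaving out the 3 SS299 libraries 4, and leaving out a steer gave 6 to 14. The steer as a replicate block gave 22 members for large against small and 20 for the 6 regions. The share of counts held by the cluster, leaving bta-miR-143 out of the total, was 0.924% for duodenum (0.543% with it), 0.817% (0.426%) for proximal and 0.648% (0.361%) for distal jejunum, 1.16% (0.631%) for cecum, 0.900% (0.423%) for spiral and 1.06% (0.549%) for descending colon. The cause of these changes was not tested, except that the smaller total raises a share. The log2 fold changes recomputed under these alternatives (15 of the 19 members called between large and small intestine, and bta-miR-379 and bta-miR-409a in distal jejunum and summed counts of SS against NS) kept their sign. The r of bta-miR-409a with bta-miR-410 did not (-0.05, against 0.08 without the 2 deepest and 0.07 without the 3 SS299 libraries). Members under the floor of 3 counts (0.155 to 5.60 CPM) are limited by depth.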

Other observations

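Rows of chromosome 21 outside the member rule give a comparison with the cluster. Within its span lay 4 further rows, bta-miR-1197, bta-miR-3956, bta-miR-3957 and bta-miR-3578, with 31 to 125 counts over the 60 libraries. The only one tested, bta-miR-1197, had a log2 fold change of 0.89 ± 0.39 for large against small intestine (adjusted p = 0.092, edgeR's quasi-likelihood test). Of 12 rows elsewhere on chromosome 21, 8 were tested, of which 0 rose and 1 fell, with a median log2 fold change of -0.05. The row that fell was bta-miR-184 (-0.60 ± 0.22, adjusted p = 0.035). bta-miR-342, the most abundant of them at 322 CPM, was at -0.10 ± 0.12.

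A list of miRNAs at other imprinted loci had 4 of its 5 rows in the table. bta-miR-335 rose in the large intestine, by 0.70 on the log2 scale (adjusted p = 0.000609, edgeR's quasi-likelihood test), bta-miR-296-3p fell by 0.51 (adjusted p = 0.00466), and bta-miR-296-5p and bta-miR-483 did not pass. The sum of the list ran from 19.0 to 237 CPM in the small and from 31.4 to 140.9 CPM in the large intestine.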
